A study of Mus musculus with 3 samples.

Results

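Expression of 10 genes for chemoattractant and retention receptors of neutrophils and other myeloid cells was examined in bone marrow (BM) Ly6G+ myeloid cells of mice given AAV-ctrl or AAV-IL27. The genes were Cxcr2, Cxcr4, Ccr1, Ccr2, Ccrl2, Fpr1, Fpr2, C5ar1, Ltb4r1 and Cx3cr1, chosen by symbol for the signals their products bind. They are 10 of the 16072 named genes in the expression table, and all 10 passed the filter on low values that left 9130 genes, a mean FPKM of at least 1 over the 3 libraries. FPKM is the number of sequenced fragments scaled to transcript length and to the mapped fragments of the library, so levels of different genes can be set side by side.

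The mice were C57BL/6 animals, between 6 and 10 weeks old in the study. All of them, controls included, carried B16.F10 melanoma cells injected under the skin a week before the vector, and the vector went into muscle. AAV-IL27 is an adeno-associated virus with a linked EBI3 and p28 cDNA of mouse IL-27 under the broadly active CAG promoter, so the injected muscle and any other transduced cell can supply the cytokine, and AAV-ctrl is the empty vector. BM cells were taken 3 weeks after the vector. The labels call the cells Ly6G+, and the study's text calls them Ly6G+ or Gr-1+, the second after an antibody that binds Ly6G and a related antigen. The labels give the groups, AAV-ctrl with 2 libraries and AAV-IL27 with 1 library, while the series text counts 4 mice.

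Neutrophils are made in the BM and held there, and their traffic is set by G protein-coupled receptors. CXCR4 binds CXCL12 from the marrow stroma and retains the cells, whereas CXCR2 binds CXCL1, CXCL2 and related chemokines and draws them into blood. In tissue, the formyl peptide receptors FPR1 and FPR2, the complement receptor C5AR1 and the leukotriene B4 receptor LTB4R1 guide the last steps towards bacteria or damage. CCR1 binds CCL3 and CCL5, CCR2 and CX3CR1 are best known from monocytes, and CCRL2 is an atypical receptor that binds chemerin and presents it without signalling through G proteins.

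Of the 10 receptors, 1 was higher in AAV-IL27 by at least 1 log2 unit than each AAV-ctrl library and 0 were lower. The higher gene was Ccrl2, at 2.75 times the AAV-ctrl mean. Among the receptors with a mean of at least 100 FPKM, Cxcr4 differed most, at 1.55 times the AAV-ctrl mean. The most abundant receptors, Fpr2, Cxcr2 and Fpr1, were at 101%, 91.4% and 103% of the AAV-ctrl mean. Among all 9130 genes tested, 0.307% were higher by this rule (28 genes) and 2.32% were lower (212 genes). With 1 AAV-IL27 library analysed here no test between the groups was run, the spread among AAV-IL27 mice was not measured here, and the controls' own disagreement served as the yardstick. Over the 9130 genes the size of that disagreement had a median of 0.087 and a 99th percentile of 0.571 on the log2(FPKM + 1) scale, on which differences of weakly expressed genes come out too small. At a distance of 0.5 log2 unit, 2 receptors (Cxcr4 and Ccrl2) were higher, against 1.57% of all genes, and 0 were lower, against 7.01%.

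With the pseudocount of 1, Ccrl2 and Cxcr4 were the receptors more than 0.5 log2 unit above both controls, and Ccr2 fell just short (0.48 above AAV-ctrl 2). The DNA just before the transcription starts of Ccrl2 and Cxcr4 is therefore shown. That of Fpr2, the receptor with the highest level and the smallest difference, is shown beside them. Each window holds the 250 bases before the outermost start that the RefSeq table lists, read 5′ to 3′ on the strand of the gene in GRCm38. The windows are chr9:111057519-111057768 on the minus strand for Ccrl2, chr1:128592300-128592549 on the minus strand for Cxcr4 and chr17:17887574-17887823 on the plus strand for Fpr2. Capitals mark matches on either strand to the letters searched, which stand for factors that act in myeloid cells or for common core elements. STAT factors were searched as TTCNNNGAA, C/EBP as TTGCNNAA and NF-kB as GGG and TTCC with 3 free bases between them. PU.1 was searched as GAGGAA. The GC box was searched as GGGCGG. The TATA box was searched as TATAAA.
Ccrl2: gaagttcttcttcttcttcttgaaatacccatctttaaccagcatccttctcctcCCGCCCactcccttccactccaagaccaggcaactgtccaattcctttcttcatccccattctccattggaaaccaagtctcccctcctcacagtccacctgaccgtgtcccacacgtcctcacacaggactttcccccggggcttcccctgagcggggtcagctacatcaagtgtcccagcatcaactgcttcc
Cxcr4: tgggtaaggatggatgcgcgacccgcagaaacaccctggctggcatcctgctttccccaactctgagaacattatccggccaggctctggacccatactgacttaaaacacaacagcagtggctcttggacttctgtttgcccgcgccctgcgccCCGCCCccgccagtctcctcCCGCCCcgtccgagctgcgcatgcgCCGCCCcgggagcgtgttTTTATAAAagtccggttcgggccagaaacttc
Fpr2: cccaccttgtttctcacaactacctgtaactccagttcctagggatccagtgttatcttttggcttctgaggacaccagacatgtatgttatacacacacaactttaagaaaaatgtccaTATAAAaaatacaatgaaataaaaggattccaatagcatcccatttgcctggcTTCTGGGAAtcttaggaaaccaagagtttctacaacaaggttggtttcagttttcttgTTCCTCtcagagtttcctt

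The Ccrl2 window held 1 GC box and no match to the other letters marked. The Cxcr4 window held 3 GC boxes and, nearer the start, 2 TATA matches that overlap each other on opposite strands. The Fpr2 window held 1 STAT match, 1 PU.1 match and 1 TATA match, and its matches did not overlap. Among the 10 receptors the STAT letters were found in the Fpr2 window alone, and the marked NF-kB and C/EBP letters in none. The wider NF-kB consensus, searched after the data were seen and not marked by capitals, matched once in the Ccrl2 window, from position -56 before the start, and once in that of Ccr1, and was in 7.25% of all windows. The listed starts of Ccr2 and C5ar1 lie within the span of the gene, so 250 and 202 bases of their windows are inside it. Of 32851 RefSeq start windows of this length, 7.02% held the STAT letters, 4.65% NF-kB, 9.56% C/EBP, 23.3% PU.1, 32.7% GC box and 12.4% TATA box. The PU.1 letters also stood in the windows of Cxcr2, Ccr1 and Ltb4r1. A match is a description of the letters and not a binding site.

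The levels of the receptors fell into a high and a low class with nothing between. In AAV-ctrl 1, AAV-ctrl 2 and AAV-IL27, the 7 high receptors had between 196.42 and 657.82 FPKM, and the 3 low receptors had between 0.91 and 10.65 FPKM. Fpr2, Cxcr2, Fpr1 and Cxcr4 held the first 4 places in this order in every library. Ccr1, C5ar1 and Ltb4r1 followed. Ccr1 and Ltb4r1 exchanged places 5 and 7 between the AAV-ctrl libraries, so their order is within the spread. C5ar1 was in place 6 in both AAV-ctrl libraries and in place 5 in AAV-IL27. Ccrl2 was eighth in every library, and Ccr2 and Cx3cr1 exchanged the last places. The summed FPKM of the 10 receptors was 2728 in AAV-ctrl 1, 2673 in AAV-ctrl 2 and 2853 in AAV-IL27. Without Cxcr4 the sums were 2410, 2362 and 2366, so the AAV-IL27 sum then lay between those of the AAV-ctrl libraries.

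**Figure D1:**
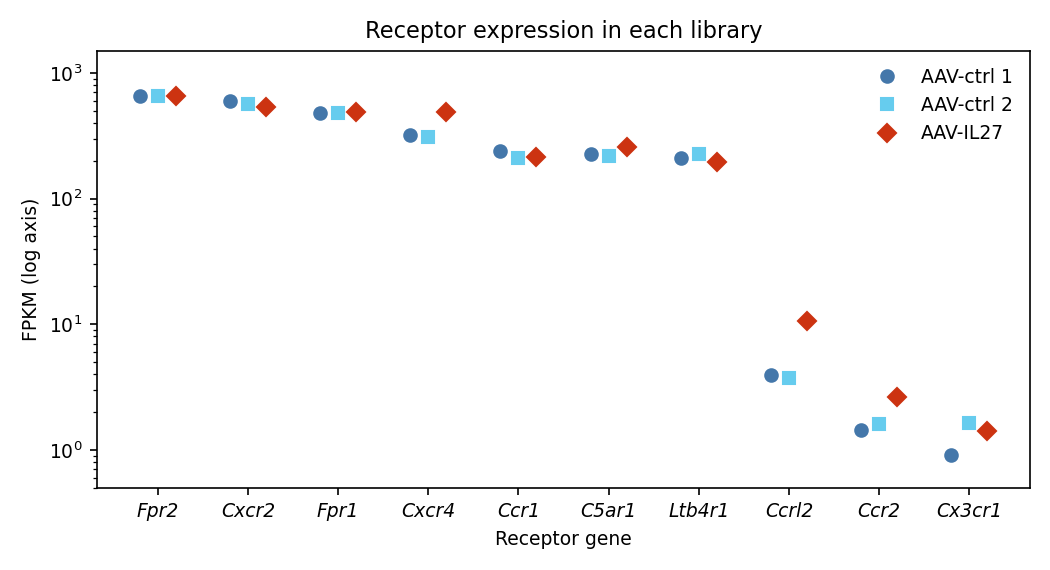
FPKM of each receptor gene on a log axis, with 1 point per library (2 AAV-ctrl and 1 AAV-IL27) and genes ordered by the AAV-ctrl mean. The 7 high receptors lie between 196.42 and 657.82 FPKM, and Cxcr4 (487.16 against 318.05 and 310.94) and Ccrl2 (10.65 against 3.98 and 3.77) show the AAV-IL27 point clearly above both AAV-ctrl points.

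The receptors that balance retention and release were examined first. Cxcr4 (NCBI Gene 12767, chromosome 1 from 128588199 to 128592299, minus strand) was at 318.05 FPKM in AAV-ctrl 1, 310.94 in AAV-ctrl 2 and 487.16 in AAV-IL27. The AAV-ctrl values were close, with a mean of 314 ± 5.03 (SD, n = 2), and the AAV-IL27 value lay above both. The log2 difference from the AAV-ctrl mean was 0.63, against -0.03 between the AAV-ctrl libraries. Measured against the nearer control it was 0.61, a distance that 90 of the 9130 genes tested (0.986%) reached or passed upwards. Among the 706 genes with a mean of at least 100 FPKM, 6 did so. Between the AAV-ctrl libraries, 74 of the 9130 genes differed by as much. The Cxcr4 values rest on an estimated 10529, 10455 and 16161 fragments, so counting error is small beside the difference.

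Cxcr2 (NCBI Gene 12765, chromosome 1 from 74153994 to 74161246, plus strand) was at 598.26 and 566.81 FPKM in AAV-ctrl and at 532.69 in AAV-IL27. Its AAV-IL27 value was below both controls, but the log2 difference of -0.13 was small beside the 99th percentile between the controls, and 2523 of the 9130 genes were as far below the nearer control. The ratio of Cxcr2 to Cxcr4 FPKM within a library, which does not depend on scaling between libraries, was 1.88 in AAV-ctrl 1, 1.82 in AAV-ctrl 2 and 1.09 in AAV-IL27. The AAV-IL27 ratio was 59.0% of the AAV-ctrl mean of 1.85 ± 0.041 (SD, n = 2).

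The BM is a mixture of cell types, and fewer cells of a type and less RNA per cell cannot be told apart in bulk RNA. Selection for Ly6G is meant to leave out B-lineage, stromal and red cells, but their genes were detected in these libraries. Genes of B-lineage cells, which also use CXCR4, were lower in AAV-IL27. All 4 of the 4 tested B-lineage genes were lower by at least 1 log2 unit than both controls, and the summed FPKM of the 10-gene list was 28.6 and 36.0 in AAV-ctrl and 4.61 in AAV-IL27, with no gene at 0. Its most abundant genes were Cd79a (9.78 and 13.56 FPKM in AAV-ctrl, 1.49 in AAV-IL27) and Cd79b (9.81 and 11 in AAV-ctrl, 1.81 in AAV-IL27). Cxcr4 was higher in the library in which B-lineage genes were lower. The part of B-lineage cells in the Cxcr4 value was not tested. Neutrophil lists differed less between the libraries. Late neutrophil genes such as Retnlg and Mmp9 (12 tested) had a median log2 difference of 0.05. Genes of the specific granule stage such as Ngp and Lcn2 (10 tested) had a median of -0.12. Of these 10, 7 lay below both controls and 1 above both, beside 41.9% and 38.9% of all genes tested. The list of early neutrophil genes (9 tested) had a median of 0.20, and the controls themselves differed by 0.21 there. Its most abundant gene, the hexokinase gene Hk3, was below both controls (-0.17), as was the granule protease gene Prss57 (-0.31), whereas the granule protein genes Mpo, Ctsg, Prtn3 and Elane were above both (0.27, 0.29, 0.37 and 0.41). For Ctsg the controls differed by more, 0.45. In these neutrophil lists 0 genes were called in either direction, beside 2.32% lower and 0.307% higher among all genes tested. Their part in the Cxcr4 value was not tested. Ly6g itself was at 711.76 and 766.11 FPKM in AAV-ctrl and at 586.29 in AAV-IL27, so the marker of the sort was present in all 3 libraries.

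The receptors for bacterial and complement signals were close between groups. Fpr2 (NCBI Gene 14289, chromosome 17 from 17887824 to 17893952, plus strand) encodes a receptor for a wide range of formyl and host peptides and was at 651.25 and 653.82 FPKM in AAV-ctrl and at 657.82 in AAV-IL27. Fpr1 (NCBI Gene 14293, chromosome 17 from 17876471 to 17883939, minus strand), the high-affinity receptor for bacterial formyl peptides, was at 477.46 and 481.96 FPKM in AAV-ctrl and at 491.82 in AAV-IL27. For both genes the AAV-IL27 value lay above both controls by a very small distance, with log2 differences from the AAV-ctrl mean of 0.01 and 0.04. The ratio of Fpr2 to Fpr1 FPKM was 1.36 in both AAV-ctrl libraries and 1.34 in AAV-IL27. C5ar1 (NCBI Gene 12273, chromosome 7 from 16246743 to 16259540, minus strand), the receptor for the complement fragment C5a, was at 226.58 and 218.89 FPKM in AAV-ctrl and at 257.93 in AAV-IL27, a log2 difference of 0.21 against -0.05 between the controls. Of the 9130 genes, 945 stood at least as far above the nearer control, so this distance was common in the table.

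Ltb4r1 (NCBI Gene 16995, chromosome 14 from 55765962 to 55768492, plus strand), whose product BLT1 senses leukotriene B4 and drives neutrophil swarming, was at 211.13 and 224.65 FPKM in AAV-ctrl and at 196.42 in AAV-IL27. The AAV-IL27 value lay below both controls, with a log2 difference of -0.15 against 0.09 between the controls. Ccr1 (NCBI Gene 12768, chromosome 9 from 123962126 to 123968692, minus strand), a receptor for CCL3, CCL5, CCL6 and CCL9, was at 238.75 and 208.69 FPKM in AAV-ctrl and at 214.42 in AAV-IL27. Its AAV-IL27 value lay between the controls, which differed from each other by -0.19 on the log2 scale. Over the 10 receptors, 6 lay above both controls by any distance, 2 lay below both and 2 lay between, against 38.9% of all genes above both and 41.9% below both. The median log2 difference over the receptors was 0.07, against -0.01 over all genes tested, and -0.01 over the receptors between the AAV-ctrl libraries.

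**Figure D2:**
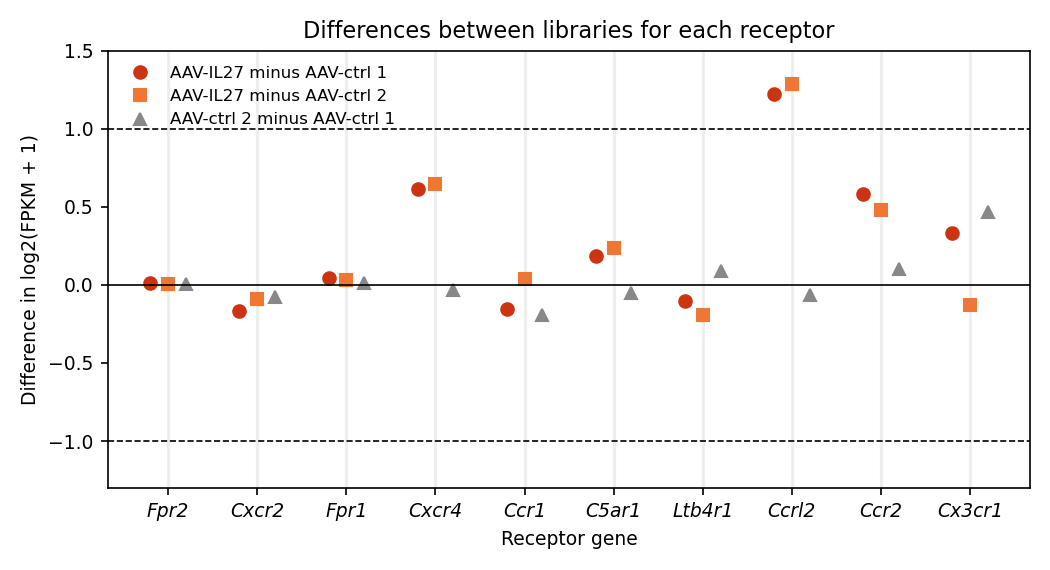
Difference in log2(FPKM + 1) for each receptor, with AAV-IL27 minus each AAV-ctrl library (circles and squares) and AAV-ctrl 2 minus AAV-ctrl 1 (triangles), and dashed lines at 1 and -1. Ccrl2 is the receptor with both AAV-IL27 points past 1 (1.23 and 1.29), Cxcr4 follows at 0.61 and 0.65, and for Cx3cr1 the difference between the controls (0.47) exceeds both.

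Among the low receptors, Ccrl2 (NCBI Gene 54199, chromosome 9 from 111054834 to 111057518, minus strand) was at 3.98 FPKM in AAV-ctrl 1, 3.77 in AAV-ctrl 2 and 10.65 in AAV-IL27. The controls were nearly level, at 3.88 ± 0.148 (SD, n = 2), and the AAV-IL27 value was far above them. The log2 difference was 1.26, against -0.06 between the controls. Of the 9130 genes tested, 23 stood at least as far above the nearer control, and 2 differed as much between the AAV-ctrl libraries. The estimated fragments were 166, 160 and 446, with 95% Poisson intervals of 142 to 193, 136 to 187 and 406 to 489, so the AAV-IL27 interval lies above both others. These intervals cover counting error only. They leave out the error of the fragment estimate, which for Ccrl2 used a mean length over 3 transcripts. The table joins 3 RefSeq transcripts of Ccrl2 in 1 value, and which of them differed was not seen here.

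Ccr2 (NCBI Gene 12772, chromosome 9 from 124101918 to 124109140, plus strand), the receptor that lets monocytes leave the BM towards CCL2, was at 1.43 and 1.61 FPKM in AAV-ctrl and at 2.64 in AAV-IL27, 1.74 times the AAV-ctrl mean. The AAV-IL27 value was above both controls, and the log2 difference of 0.53 stood beside 0.10 between the controls. Of the 9130 genes tested, 157 stood at least as far above the nearer control, and 157 differed as much between the AAV-ctrl libraries. The estimated fragments of Ccr2 were 80, 91 and 148, with 95% Poisson intervals of 63.4 to 99.6, 73.3 to 112 and 125 to 174. The AAV-IL27 interval of Ccr2 thus also lies above both others. Cx3cr1 (NCBI Gene 13051, chromosome 9 from 120048683 to 120068296, minus strand), the fractalkine receptor of patrolling monocytes and macrophages, was at 0.91 and 1.64 FPKM in AAV-ctrl and at 1.41 in AAV-IL27. The AAV-IL27 value lay between the controls, and the difference between the controls, 0.47 on the log2 scale, was larger than the difference of 0.10 between the groups. Its intervals, 49.3 to 81.7, 96.8 to 140 and 80.5 to 121 fragments, did not overlap between the AAV-ctrl libraries, so their spread was wider than counting error.

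**Figure D3:**
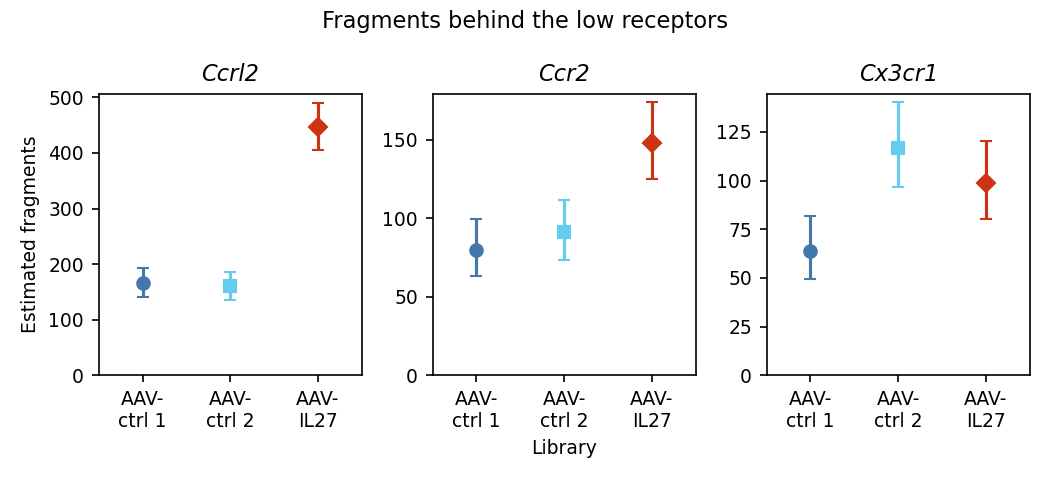
Estimated fragments behind Ccrl2, Ccr2 and Cx3cr1 in each library, with bars for 95% Poisson intervals that cover counting error only, each panel on its own axis from 0. For Ccrl2 (406 to 489) and Ccr2 (125 to 174) the AAV-IL27 interval lies above those of both controls, whereas for Cx3cr1 it (80.5 to 121) overlaps those of both controls.

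Monocyte and macrophage genes were read beside these low receptors. Of the 10 tested genes of the monocyte list, which leaves out Ccr2 and Cx3cr1, 0 were called, and the median log2 difference was 0.05. Among all genes tested, 2.32% were called lower and 0.307% higher. The members of the monocyte list were far apart, from -1.03 for Fcgr1 to 1.15 for Nr4a1. Of them, 5 lay above both controls and 4 below both, beside 38.9% and 41.9% of all genes tested. Fn1 (0.91), Ms4a6c (0.51) and F13a1 (0.46) were above, and Pld4 (-0.77) and Irf8 (-0.62) below. The summed FPKM of that list was 1209 and 1273 in AAV-ctrl and 1342 in AAV-IL27, most of it Ly6c2 (1023, 1086 and 1145), with Csf1r at 78.57, 74.5 and 75.39 and no gene at 0. In the macrophage list 12 of 15 genes were lower by at least 1 log2 unit than both controls, with a sum of 1135 and 1138 in AAV-ctrl and 481.58 in AAV-IL27, with no gene at 0. Its most abundant genes, Apoe and Slc40a1, were below both controls and not among those called. Cx3cr1 lay between the controls, Ccr2 and Ccrl2 lay above them and the macrophage genes lay below them. Red cell genes were lower too, 10 of 10, with a sum of 16323, 10925 and 1858 FPKM, whereas 0 of 2 tested T and NK cell genes and 0 of 1 tested dendritic cell gene were called, with sums of 13.2, 13.2 and 12.6 FPKM and of 8.63, 15.5 and 12.9 FPKM in the same order of libraries. The part of any of these cell types in the values of Ccr2, Ccrl2 and Cx3cr1 was not tested.

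The ligands of these receptors were described from a list of 25 genes, of which 15 passed the filter. By the rule 1 was higher and 2 were lower, beside 0.307% and 2.32% of all genes tested. Ccl3, which encodes a ligand of CCR1, was at 9.63 and 8.44 FPKM in AAV-ctrl and at 39.2 in AAV-IL27, 4.34 times the AAV-ctrl mean and a log2 difference of 2.00. Its estimated fragments were 128, 114 and 522. As Ccr1 was level, the ratio of Ccr1 to Ccl3 FPKM went from 24.8 and 24.7 in AAV-ctrl to 5.47 in AAV-IL27. Other CCR1 ligands differed less, with Ccl6 at 989.14, 1129 and 1278 FPKM and Ccl9 at 2.17, 3.1 and 4.7 FPKM, controls first.

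The lower ligands were Cxcl12 and Ppbp. Cxcl12, the CXCR4 ligand, was at 6.58 and 7.15 FPKM in AAV-ctrl and at 1.18 in AAV-IL27, so the receptor and its ligand lay on opposite sides of the controls. Ppbp, a platelet gene whose product is cut to a CXCR2 ligand, was at 29.58 and 29.14 FPKM in AAV-ctrl and at 2.99 in AAV-IL27. Platelet and megakaryocyte genes were lower in the same library, 3 of the 5 tested, with Ppbp itself one of them, and the list summed to 54.1 and 60.5 FPKM in AAV-ctrl and 9.88 in AAV-IL27. Genes of stroma and endothelium, a known source of CXCL12, summed to 14.1 and 17.0 FPKM in AAV-ctrl and 8.11 in AAV-IL27, with Adipoq at 0 in AAV-IL27. Of the 6 tested, 1 was called lower, beside 2.32% of all genes tested. The part of these cells in the ligand values was not tested. Cxcl2, a CXCR2 ligand that neutrophils make, was at 7.98, 9.38 and 15.62 FPKM, a log2 difference of 0.78 that did not reach the rule, whereas Cxcl1 was listed at 0 in all 3 libraries.

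The genes that supply ligands of the other receptors had 0 called members, beside 2.32% lower and 0.307% higher among all genes tested. Alox5, Alox5ap and Lta4h, which take part in making leukotriene B4, were at 99.8%, 99.5% and 88.9% of the AAV-ctrl mean. Alox5ap and Lta4h lay below both controls. Camp, the cathelicidin that FPR2 binds, was at 7085 FPKM in AAV-IL27 and 97.5% of the AAV-ctrl mean, and Anxa1, another formyl peptide receptor ligand, was at 93.3%. Hc, the C5 precursor, was at 0.34 and 0.48 FPKM in AAV-ctrl and at 0.11 in AAV-IL27, too low to be tested, and Rarres2, which encodes chemerin, was at 0.16, 0.32 and 0.16 FPKM beside the higher Ccrl2.

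Of 31 further chemoattractant receptors, 27 were in the table and 13 were tested. Of these 13, 1 was lower and 0 were higher by the rule, beside 2.32% and 0.307% of all genes tested. The lower gene was Ccr3, the eotaxin receptor of eosinophils, at 14.39 and 12.92 FPKM in AAV-ctrl and 2.16 in AAV-IL27. Eosinophil, basophil and mast cell genes showed no called member among 8 tested, with a median log2 difference of -0.31 and a sum of 141 and 148 FPKM in AAV-ctrl and 122.83 in AAV-IL27. Of these 8, 5 lay below both controls, 1 above both and 2 between, beside 41.9% below both and 38.9% above both among all genes tested. Ear2, the most abundant, was at 106.46 and 108.24 FPKM in AAV-ctrl and at 89.64 in AAV-IL27. Ear1 was at 4.07 and 4.17 FPKM in AAV-ctrl and at 1.56 in AAV-IL27. The defining genes Epx and Prg2 were at 0.71 and 5.16 FPKM in AAV-IL27 and above that in both controls. Mcpt8 was also below both. Siglecf was at 9.49 and 7.44 FPKM in AAV-ctrl and at 12.36 in AAV-IL27, and Prss34 and Cpa3 lay between the controls. The part of these cells in the Ccr3 value was not tested. Cxcr3, which binds interferon-induced chemokines, was at 1.39 and 1.17 FPKM in AAV-ctrl and at 3.55 in AAV-IL27, 2.77 times the AAV-ctrl mean, and missed the rule at 0.93 log2 unit above AAV-ctrl 1. S1pr4, C5ar2 and Ptafr, the most abundant of the tested list, were at 104%, 109% and 130% of the AAV-ctrl mean.

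Signalling genes downstream of the receptors were close between groups. All 21 were tested and 0 were called, beside 2.32% lower and 0.307% higher among all genes tested. Their log2 differences lay between -0.31 and 0.26 with a median of -0.01. Gnai2, the main inhibitory G protein of leukocytes, was at 1186 and 1180 FPKM in AAV-ctrl and at 1212 in AAV-IL27, the GTPase gene Rac2 at 1036, 1085 and 1029, and the G protein subunit gene Gnb2 at 425, 468 and 406. For genes that shut receptors off, 12 of 14 were tested, 0 were called, and the median was 0.13 in a range of -0.07 to 0.62, with 9 above both controls and 3 below both, beside 38.9% and 41.9% of all genes tested. The upper end was the receptor kinase gene Grk5, at 9.35 and 9.16 FPKM in AAV-ctrl and at 14.78 in AAV-IL27, 1.60 times the AAV-ctrl mean. The arrestin gene Arrb2 was at 480.45, 486.61 and 558.48 FPKM, the kinase gene Grk2 (listed as Adrbk1) at 311.18, 327.41 and 348.15, and the RGS gene Rgs19 at 192.83, 195.05 and 199.25.

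**Figure D4:**
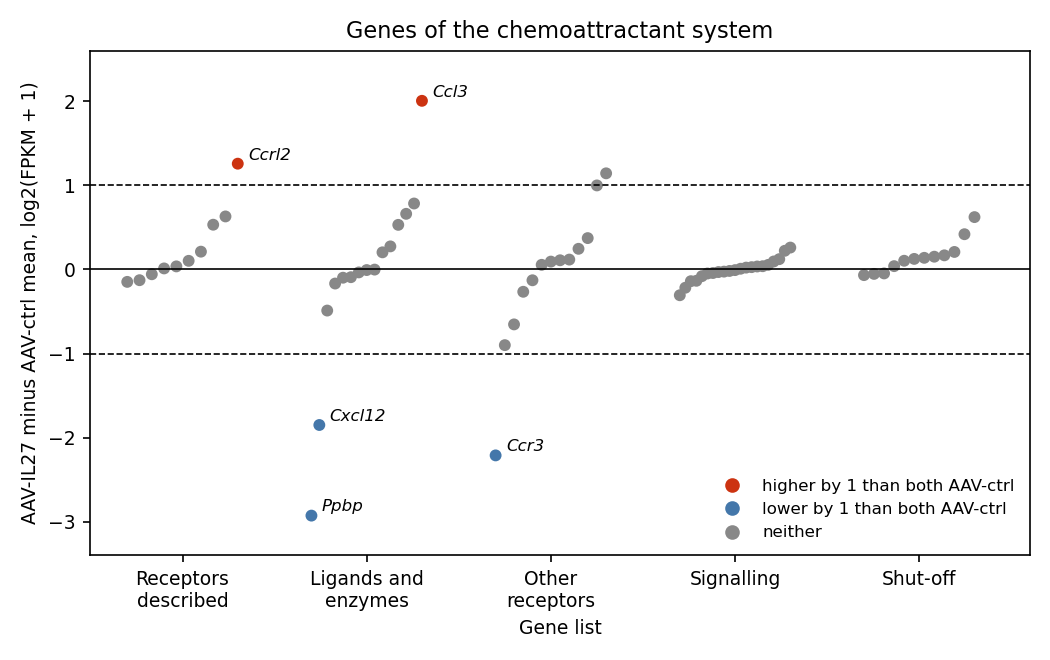
Log2 difference of AAV-IL27 from the AAV-ctrl mean for each tested gene of 5 lists, with 1 point per gene, red and blue for genes at least 1 above or below both AAV-ctrl libraries and dashed lines at 1 and -1. Ccrl2 and Ccl3 are the red points and Cxcl12, Ppbp and Ccr3 the blue ones, and the grey point past 1 is Gpr35, which was 0.94 above AAV-ctrl 1.

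Shared sequence limits some single values. The Fpr2 transcript aligned to Fpr3 over 1131 bases at 87.8% identity, and Fpr3 was at 0, 0 and 0.05 FPKM. A further match of Fpr2, Gm5966, at 95.7% over 1041 bases, has no row in the table. The Cxcr2 transcript shares stretches of at least 300 bases with 96 other genes, at up to 90.9% identity. Cxcr4, Ccrl2, C5ar1, Ltb4r1 and Cx3cr1 had no such match in GENCODE M21 transcripts. In the same annotation, exons of Cx3cr1 overlap those of Gm33858 on the other strand over 78 bases, and exons of Fpr2 overlap those of Fpr3 on the same strand over 48 bases.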

How the data were processed

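The authors enriched mRNA with oligo-dT, marked the second strand with dUTP, sequenced on DNBSEQ and deposited FPKM values with 2 decimals, 1 column per library. The submitters' processing notes name the build mm10, while the aligner and counter are not given in the sources used here. Of 16073 rows, 1 without a symbol was left out, and 1 column of per-sample values, headed as an IL27 library but matching no listed sample, was not used. Differences were computed on log2(FPKM + 1), with a pseudocount of 1. A gene was called when it lay at least 1 log2 unit from each AAV-ctrl library in the same direction. No test was run, since AAV-IL27 has 1 library.

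A low FPKM moves in steps worth 1 fragment, and the step size gave each library's depth, fitted on 10934 genes to which GENCODE M21 gives 1 transcript (length less 70 nt). The estimates were 19080000, 19380000 and 19120000 fragments for the control libraries and AAV-IL27 in turn, with 78.6%, 78.3% and 77.6% of 884, 868 and 870 low values within 0.2 of whole fragments. Too few were whole for a test on counts.

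The receptors and gene lists were chosen with earlier results of these data known. Genes named are the 10 receptors, called genes of the ligand, receptor, signalling and shut-off lists, the 3 most abundant genes of those lists, the 2 most abundant of each marker list where given, and the ligand or nearest paralog of a receptor. Further marker genes, Grk5, Cxcr3 and Gpr35 were named after their values were seen. Of 223 list genes in 17 lists, 219 were in the table. Promoters and positions are from RefSeq on GRCm38.p6, and all 10 receptors matched. Alternatives were other pseudocounts, filters, thresholds and scalings and leaving out each AAV-ctrl library. BLAST 2.17.0, matplotlib 3.10.9, scipy 1.17.1, pandas 2.3.3 and numpy 2.4.6 under Python 3.11.15 were used. The code for the calls and the depth estimate was run on simulated data with whole fragments and changes far larger than the rule. That run checks the code and does not show how reliable the calls or depths are in these data.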

Additional observations from a re-analysis of the deposited data

How the results depend on the processing

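The depth and the single AAV-IL27 library limit these results, and the AAV-IL27 library cannot be left out. Nothing in the labels pairs an AAV-ctrl library with the AAV-IL27 library, so the comparison was unpaired. Ccrl2 was called higher under every setting tried, and no receptor was called lower. Under a threshold of 0.5 the receptors called higher numbered 2, Ccrl2 and Cxcr4, and the genes called over the whole table went from 212 to 640 lower and from 28 to 143 higher. The genes called lower numbered 396 with a pseudocount of 0.1 and 93 with a mean of at least 5 FPKM. Leaving out AAV-ctrl 1 or AAV-ctrl 2 gave 40 and 49 genes called higher. The receptor sum went from 106% to 109% of the AAV-ctrl mean when FPKM totals were made equal. The causes were not tested.

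The 10 receptor differences were recomputed under 5 alternatives each, and of the 50 values 48 kept their sign and 7 shifted further than 1 SD of AAV-ctrl. The exceptions in sign were Ccr1 (0.04) and Cx3cr1 (-0.13) without AAV-ctrl replicate 1. Leaving out either AAV-ctrl library always shifts a difference by less than 1 SD of AAV-ctrl, so the 7 come from the other alternatives. The log2 difference ranged from 1.23 to 1.44 for Ccrl2, from 0.61 to 0.67 for Cxcr4 and from 0.48 to 0.76 for Ccr2, which passed Cxcr4 (0.63) with a pseudocount of 0.1. For Fpr2 and Fpr1, the small differences of 0.01 and 0.04 were within the shift that rescaling made in all genes, since equal totals moved the median of all genes from -0.01 to 0.03.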

Other observations

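Several receptor genes lie beside a relative in the genome (RefSeq positions, GRCm38.p6), and neighbours were not always on the same side of the controls. Cxcr1, which starts 30538 bases from the end of Cxcr2, was at 10.68 and 10.58 FPKM in AAV-ctrl and at 5.23 in AAV-IL27, so the ratio of Cxcr2 to Cxcr1 FPKM was 56.0 and 53.6 in AAV-ctrl and 102 in AAV-IL27. On chromosome 9, Ccr1, Ccr3 and Ccr2 lie in this order with 49132 and 70225 bases between them. Ccr1 lay between the controls, Ccr3 was lower by at least 1 log2 unit than both and Ccr2 was above both. C5ar1 and C5ar2, with 2588 bases between them, were both above both controls, and their FPKM ratio was 7.43 and 7.44 in AAV-ctrl and 7.92 in AAV-IL27. Fpr1 and Fpr2, with 3884 bases between them, were level. No test was made of these patterns.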
